A study of Mus musculus with 4 samples.

Results

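Vascular smooth muscle cells of the mouse brain were taken from single-cell libraries of the hemisphere on the side of the operation, made 1, 3 or 7 days after transient middle cerebral artery occlusion (tMCAO) or after sham surgery. A cell was kept with 200 to 6000 detected genes and at most 10% of its UMIs (unique molecular identifiers, each standing for 1 captured RNA molecule) from mitochondrial genes. A kept cell was a member with a UMI of at least 3 of the smooth muscle genes Myh11, Lmod1, Pln, Cnn1 and Map3k7cl, of at most 1 of the pericyte genes Kcnj8, Atp13a5, Abcc9, Anpep and Cd248, and of neither Mog nor C1qa. The rule found 4091 members among 54754 kept cells (7.47%) and among 59429 barcodes. All groups were male C57/BL6 mice, 8 weeks old by the labels. In tMCAO a monofilament closes the middle cerebral artery and is then withdrawn, so that the tissue is reperfused, and the sham mice had the same operation without the closure. The design text places the sham tissue at day 7. The hemispheres were digested with papain and cleared of myelin debris on Percoll. Each group was 1 library, the number of mice in a library was not given in the sources used here, and the 3 comparisons share the sham library. Hence no test between groups was possible and no p-value is given. Every interval printed is an exact 95% interval that covers counting error only and leaves out the spread between mice. Intervals of levels and ratios treat UMIs as independent and so also leave out the spread between cells.

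Smooth muscle cells wrap arteries and arterioles and set their width. Calcium that enters through membrane channels or leaves internal stores activates the light chain kinase of myosin, and smooth muscle actin and myosin then shorten the cell. Nitric oxide from the endothelium opposes this through cyclic GMP. After vessel injury these cells are known to be able to lower their contractile genes and to make matrix, a switch that has been described in arteries outside the brain above all. Serum response factor with its partner myocardin drives the contractile genes from CArG boxes in their promoters. Pericytes, the other mural cells, sit on capillaries.

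The members carried the genes of the cell type that the rule had not used. Acta2, smooth muscle actin, and Tagln, which binds it, had a UMI in at least 99.4% of the members of each library. Of 7 smooth muscle markers outside the rule (Acta2, Tagln, Des, Tpm2, Filip1l, Mylk and Myl9), at least 3 were found in 792 of 792 sham members, 728 of 728 day 1 members, 884 of 885 day 3 members and 1683 of 1686 day 7 members. Since every gene of a cell is bound up with the genes that chose it, this is a description. The 8 pericyte markers, of which 5 are the pericyte genes of the rule, summed to between 692 and 1062 counts per 1000000 UMIs (CPM) in the members. They summed to between 13280 and 27653 CPM in the pericyte-like cells, which were chosen by the mirror rule. This gap was in part fixed by both rules and is a description only. Microglial markers summed to between 19.1 and 48.6 CPM in the members, which by the rule had no UMI of C1qa. Exactly 3 of the smooth muscle genes were found in 90, 170, 139 and 220 members (sham, day 1, day 3 and day 7), in which the 20 genes of the contractile list took a median of 4.32%, 6.28%, 4.5% and 4.66% of a cell's UMIs. Just outside the rule, 68, 79, 95 and 187 cells had 2 of the genes, and there the median was 1.63%, 2.68%, 1.21% and 1.82%. Of 5225 cells with at least 3 of the smooth muscle genes, 560 had more than 1 pericyte gene and 661 had Mog or C1qa.

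Part of the members also carried markers of another cell type. Endothelial markers, at least 3 of 7, were found in 147 sham members (18.6%), 128 of day 1 (17.6%), 179 of day 3 (20.2%) and 400 of day 7 (23.7%). In the sham library those cells had a median of 12129 UMIs against 7313 in the members without such markers or those of the other classes named next, and the contractile list took 3.71% of their UMIs against 8.32%. With oligodendrocyte, astrocyte, neuron and choroid plexus markers counted too, 22.3%, 23.1%, 21.8% and 25.2% of the members were so marked. At least 3 of 8 pericyte markers, of which the rule allows 1 of 5, were found in 224, 115, 239 and 343 members, and at least 3 of 5 erythrocyte markers in 27, 1, 23 and 4 members. No doublet caller was run. Values below are for all members and, where a second value follows in parentheses or after the first, for the 615, 560, 692 and 1261 members without 3 markers of the endothelial, oligodendrocyte, astrocyte, neuron or choroid plexus class, called members without markers of the 5 classes. Pericyte and erythrocyte markers were not used to leave members out, and at least 3 pericyte markers were still found in 24.9%, 15.9%, 23.8% and 19.7% of those members. Transcripts of other cells also differed between the libraries. Ttr, the choroid plexus transcript, stood in the members at 1077, 24510, 12160 and 3136 CPM, and the 4 haemoglobin genes summed to 4112, 588, 2506 and 405 CPM. Few cells held much of them: 36.3%, 26.3%, 35.3% and 79.6% of the Ttr UMIs and 69.1%, 97.7%, 88.0% and 94.0% of those of Hbb-bs, a haemoglobin gene, lay in 3 members of each library. Ttr was found in at least 89.0% of the members of each library. The part of these transcripts in the results was not tested. Across library pairs, 33 to 88 barcodes were shared, of which 1 was a member in both libraries (days 3 and 7).

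The members made up 792 of 10193 kept cells in the sham library (7.77%, interval 7.26% to 8.31%). On day 1 they were 728 of 16714 (4.36%, 4.05% to 4.68%), on day 3 885 of 11298 (7.83%, 7.34% to 8.34%) and on day 7 1686 of 16549 (10.2%, 9.73% to 10.7%). The day 1 share was thus the lowest and the day 7 share the highest, and the sham and day 3 intervals overlapped. Among mural cells (members plus pericyte-like cells) the members were 68.3%, 55.2%, 58.4% and 73.7%. A share depends on how many other cells each digestion released, and a lower share cannot be told apart from more of the other cells. It also depends on depth, because a cell of fewer UMIs shows fewer of the 5 genes. The members had a median of 7619 UMIs and 2598 genes in the sham library, 4202 and 1684 on day 1, 6409 and 2365 on day 3, and 5992 and 2332 on day 7. With each kept cell thinned to 1000 UMIs before the rule was applied, the shares were 4.33%, 2.68%, 4.67% and 7.25%. Without members that carried markers of the 5 classes they were 6.03%, 3.35%, 6.12% and 7.62%. Day 1 stayed lowest and day 7 highest under both. With the mitochondrial limit at 5%, however, the sham library had 165 members left and the lowest share (2.27%, against 2.86%, 5.79% and 3.02%). The median mitochondrial share of the members was 6.40%, 4.97%, 4.62% and 6.56%, and its part in these shares was not tested.

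**Figure D1:**
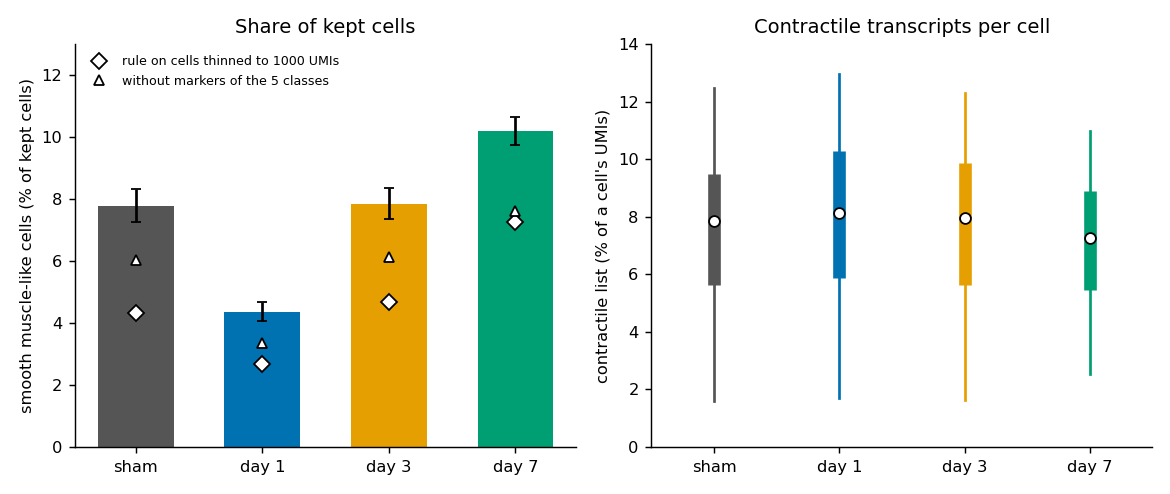
Left, smooth muscle-like cells as a percentage of kept cells in each library (bars, with exact 95% intervals), with the same share after thinning (diamonds) and without members that carry markers of the 5 classes (triangles). Right, the contractile list as a percentage of a member's UMIs (circle, median; thick line, 25th to 75th percentile; thin line, 5th to 95th percentile), with medians between 7.25% and 8.12%.

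Within the members, the 20 genes of the contractile list took a median of 7.85%, 8.12%, 7.96% and 7.25% of a cell's UMIs. Their summed level was 70862 CPM in the sham library, and the ratio to it was 0.971 on day 1 (0.966 to 0.975), 1.00 on day 3 and 0.977 on day 7 (0.973 to 0.980). The median log2 ratio of the list was -0.07, -0.03 and 0.23 on days 1, 3 and 7, beside -0.08, 0.04 and 0.07 over all genes tested, and 0.05, -0.03 and 0.20 without markers of the 5 classes. At the 5% mitochondrial limit the median share of a cell's UMIs was 3.69%, 7.59%, 7.40% and 4.64%, and the median log2 ratio of the list was 0.86, 0.92 and 0.75 on days 1, 3 and 7. Of the sham members left at that limit 55.8% carried markers of the 5 classes, against 31.0%, 28.3% and 51.3% on days 1, 3 and 7. A gene was tested with at least 50 CPM and 20 UMIs in 1 of the 2 libraries and where no other cell class stood above 5 times the members' level, a log2 ratio was taken with 10 CPM added to both levels, and a change of at least 2-fold on that scale was called past 2-fold. These ratios carry no test. A gene low in sham can enter through the day library alone, so the tested genes of a list can differ between days.

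Acta2 stood at 19370, 17290, 20300 and 16490 CPM, with ratios to sham of 0.893 (0.884 to 0.901), 1.05 and 0.852 (0.846 to 0.858). Tagln was at 15180, 14950, 14750 and 14060 CPM. Both were lowest on day 7, Tagln at a ratio of 0.926 (0.919 to 0.934). At the 5% mitochondrial limit sham was lowest instead, with Acta2 at 8008 CPM against 10584 on day 7 and Tagln at 6359 against 9085 CPM. The promoter of Acta2 (RefSeq, GRCm38.p6, chr19:34255374-34255623, minus strand, the 250 bases before the transcript start) is printed because it holds the elements that tie this gene to the contractile programme. Capitals mark the CArG boxes that a search found, CC and GG around 6 bases of which at most 1 is G or C. They lie 84 and 34 bases before the start, and such a match is present in 8.59% of the 32851 mouse promoters of this length.
Acta2: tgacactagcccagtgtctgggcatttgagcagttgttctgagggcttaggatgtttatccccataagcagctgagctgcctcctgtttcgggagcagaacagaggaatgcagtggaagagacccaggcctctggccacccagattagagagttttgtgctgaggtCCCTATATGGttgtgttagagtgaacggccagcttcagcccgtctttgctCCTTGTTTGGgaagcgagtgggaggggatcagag
The search reads letters only and was not tied to any binding data.

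On day 7, 13 of the 19 contractile genes tested lay above sham and 6 below, and none was past 2-fold. The day 7 median over these genes was 0.54 in pericyte-like cells and 0.29 in endothelial-like cells, against 0.23 in the members. Tpm1, a tropomyosin that lies along the actin filament, was at 3437, 3305, 3166 and 5312 CPM (log2 ratio 0.63 on day 7, and 0.57 without markers of the 5 classes). Cald1, caldesmon, which holds actin and myosin apart at rest, was at 1581, 1423, 1341 and 2728 CPM (0.78 and 0.73). Mylk, the kinase that starts contraction, was at 1260, 1028, 1210 and 2042 CPM (0.69 and 0.60). Myl9, the light chain that this kinase acts on, was at 9262, 8581, 9164 and 6072 CPM, a log2 ratio of -0.61 on day 7 (-0.68). For these 4 genes the sham, day 1 and day 3 libraries lay close together and day 7 stood apart. Synpo2, an actin-binding protein, came closest to 2-fold on day 7, at 75.6 CPM in sham and 149 CPM (0.90 and 0.91).

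Past 2-fold, the contractile list held 1 lower gene on day 1 and 1 higher gene on day 3. Over all genes tested, 1.71% were past 2-fold lower on day 1 and 0.41% past 2-fold higher on day 3. Actg2, the smooth muscle actin best known from the gut, was at 38.7, 85.6, 94.9 and 48.3 CPM, a log2 ratio of 0.97 on day 1 and 1.11 on day 3 (1.21 and 1.26). It had a UMI in 8.33%, 15.4%, 15.6% and 12.2% of the members. When each member was thinned to 1000 UMIs (3, 0, 2 and 40 shallower members left out), the shares were 2.66%, 7.28%, 5.32% and 3.58%, against at most 0.092% of oligodendrocyte-like cells. The genes of the rule itself are a description only: Myh11, smooth muscle myosin, was at 3131, 2409, 2479 and 5000 CPM, and Cnn1, calponin, at 141, 287, 233 and 271 CPM.

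**Figure D2:**
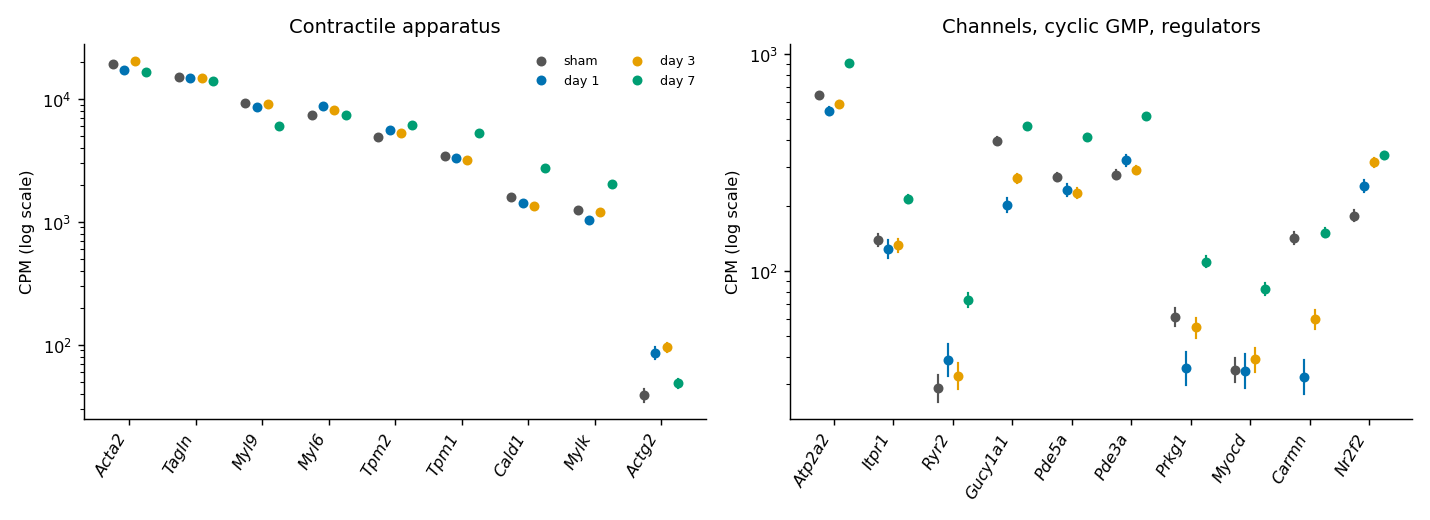
Summed level in the members of each library (CPM, log scale; points, with exact 95% counting intervals as lines) for genes of the contractile apparatus (left) and for channels, cyclic GMP signalling and regulators (right). Acta2 and Tagln are close in all 4 libraries, Carmn is lowest on day 1, and Ryr2 and Myocd are highest on day 7.

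Of 18 genes that move calcium or open other channels, 10, 11 and 14 were tested on days 1, 3 and 7, with median log2 ratios of -0.23, -0.03 and 0.52 (-0.19, -0.06 and 0.45 without markers of the 5 classes), and 2 of 10 were above 0 on day 1 and 11 of 14 on day 7. At the 5% mitochondrial limit the medians of days 1 and 3 turned to 0.216 and 0.496. Over the genes tested on day 7 the median was 0.51 in pericyte-like cells and 0.13 in endothelial-like cells. Ryr2 was the 1 gene past 2-fold, on day 7, against 1.77% of all genes tested that were past 2-fold higher on day 7. Ryr2, the ryanodine receptor that releases calcium from the store, was at 28.8, 39.0, 32.9 and 73.3 CPM (1.10 on day 7, and 1.00). Atp2a2, the SERCA pump that refills the store, was at 644, 546, 588 and 908 CPM, and Atp2b4, a pump of the outer membrane, at 179, 142, 156 and 309 CPM. Both were highest on day 7 at less than 2-fold. Ano1, a chloride channel that calcium opens, was at 116, 54.3, 86.4 and 123 CPM, a log2 ratio of -0.97 on day 1 (-0.76). Pericyte-like cells had 122 CPM of Ano1 in sham and 141 CPM on day 1.

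The median of the nitric oxide and cyclic nucleotide list was -0.19, -0.14 and 0.41 (-0.19, -0.11 and 0.41; 0.155 and 0.33 on days 1 and 3 at the 5% mitochondrial limit), and 9 of 9 tested genes were above 0 on day 7 although none was past 2-fold. Gucy1a1, the subunit of the enzyme that makes cyclic GMP when nitric oxide binds, was at 398 CPM in sham, 201 on day 1, 268 on day 3 and 464 on day 7 (-0.95 on day 1, and -0.86). A UMI of it was found in 94.1%, 60%, 77.1% and 86.9% of the members. Prkg1, the kinase that cyclic GMP activates, was at 61.4, 35.5, 54.8 and 110 CPM (-0.65 on day 1 and 0.75 on day 7). Pde3a, which breaks cyclic nucleotides down, was at 277, 323, 292 and 517 CPM (0.87 on day 7, and 0.79). In pericyte-like cells Gucy1a1 was at 247, 245, 314 and 449 CPM, so that sham and day 1 were about equal there. The day 7 median over the tested genes of the list was 0.89 in pericyte-like cells and 0.14 in endothelial-like cells. The day 7 rise of this list was thus not particular to the members.

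Among receptors for vessel-active signals 7 of 21 were tested on each day, and 1 was past 2-fold, lower on day 1, when 1.71% of all genes tested were; without markers of the 5 classes none was. Pth1r, the receptor of parathyroid hormone and its related peptide, was at 98.0, 40.4, 85.6 and 71.9 CPM (-1.10 on day 1, and -0.97, which is short of 2-fold). Npy1r, through which neuropeptide Y narrows vessels, was highest on day 1, at 137, 218, 143 and 188 CPM (0.63, and 0.72). Ednra, the endothelin receptor of smooth muscle, was at 126, 104, 118 and 171 CPM and was at most 0.41 from sham on the log2 scale.

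The regulators of the contractile state did not move together. Myocd, myocardin, was at 35.0, 34.7, 39.1 and 82.5 CPM, so that the sham, day 1 and day 3 libraries agree within their counting intervals and day 7 was higher (1.04, and 1.06 without markers of the 5 classes; ratio 2.36, 2.04 to 2.74). Carmn, a long noncoding RNA of smooth muscle that binds myocardin, was at 142 CPM in sham, 32.6 on day 1, 59.7 on day 3 and 150 on day 7. Its ratio to sham was 0.229 on day 1 (0.188 to 0.277; log2 -1.84, and -1.79) and 0.421 on day 3 (0.373 to 0.475; log2 -1.12, and -1.10), and it was back at the sham level on day 7 (1.06, 0.975 to 1.15). A UMI of Carmn was found in 59.8%, 14.7%, 30.3% and 51.8% of the members, and after thinning in 14.8%, 3.57%, 7.25% and 13.9%. In pericyte-like cells it was at 140, 52.3, 141 and 241 CPM, and in endothelial-like cells at 2.06 CPM or below. The day 1 level was thus low in both mural classes. Nr2f2, a transcription factor of venous identity, was higher in each tMCAO library, at 179, 245, 316 and 340 CPM (0.43, 0.78 and 0.89; 0.50, 0.77 and 0.76). The list of regulators, which does not hold Carmn, had medians of 0.04, -0.12 and 0.54 (0.195, 0.17 and 0.59), so that the direction on day 3 differed between both sets of members. Under other settings the day 1 median lay as low as -0.205, with at least 100 CPM.

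In the Notch pathway, which holds mural cells in their arterial state, Notch2 was the gene past 2-fold over all members, on day 3, when 0.41% of all genes tested were past 2-fold higher. It was at 40.3, 88.5, 111 and 76.1 CPM, log2 ratios of 0.97, 1.26 and 0.78 (0.91, 1.05 and 0.66 without markers of the 5 classes). All 3 tMCAO libraries lay above sham. Jag1, a ligand of these receptors, was at 204, 297, 336 and 227 CPM (0.52, 0.69 and 0.15; 0.79, 0.74 and 0.14), and Notch3, the receptor typical of smooth muscle, at 352, 324, 415 and 517 CPM. Hes1, a target gene of the pathway, was at 734, 473, 422 and 639 CPM (-0.62 and -0.78 on days 1 and 3, and -0.51 and -0.77). Nrip2 was at 392, 258, 394 and 198 CPM, a log2 ratio of -0.95 on day 7 (-1.01). Without markers of the 5 classes Nrip2 was past 2-fold on day 7, and so was Notch1, another receptor, at 83.2 CPM in sham and 150 CPM on day 7 over all members (0.78, and 1.02). The median of the list was -0.04, 0.00 and 0.24 (0.095, 0.02 and 0.27). Its sign changed in 4 of 13 settings on day 1 and in 5 on day 3, and the day 7 median fell to 0.081 in thinned members.

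On day 1, 17 of 2869 genes tested were past 2-fold higher (0.593%) and 49 lower (1.71%), 2.3% in all. Without markers of the 5 classes the counts were 24 and 26 of 2753. Among the higher genes was S100a6, a calcium-binding protein. It was at 162 CPM in sham, 1125 on day 1, 447 on day 3 and 289 on day 7, a ratio of 6.93 on day 1 (6.48 to 7.42; log2 2.72, and 2.80). Day 1 was highest and day 7 closest to sham. A UMI was found in 27.8%, 52.1%, 33.6% and 29.5% of the members, and after thinning in 10.4%, 32.8%, 13.8% and 12.7%. S100a6 was higher on day 1 in pericyte-like cells as well (12 to 1134 CPM) and in endothelial-like cells (40.1 to 993 CPM). In oligodendrocyte-like cells the thinned share was 6.51% in sham, 10.6% on day 1, 11.7% on day 3 and 3.76% on day 7.

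S100a6 belongs to a list that gathers iron, lipid, annexin and S100 genes, whose median on day 1 was 0.61 over 10 tested genes (0.74 without markers of the 5 classes), with 7 of 10 above 0. Lgals1, galectin 1, was at 586, 1186, 1073 and 500 CPM (1.00 and 0.86 on days 1 and 3, and 1.14 and 0.93). S100a11 was at 510, 986, 703 and 603 CPM (0.94 on day 1, and 1.19). Anxa2, a membrane-binding annexin, was at 160, 264, 242 and 173 CPM (0.69 on day 1, and 0.90). Nes, the intermediate filament nestin, went the other way, at 143, 57.8, 68.5 and 184 CPM (-1.17 on day 1, and -0.98), as it did in endothelial-like cells (254 to 74.4 CPM). Among the named genes of day 1, Arrdc3, an arrestin-like adaptor, was at 16.6, 65.1, 27.3 and 46.4 CPM (1.5, and 1.61), and Gm37800, a predicted gene, at 50.7, 140, 82.6 and 74.7 CPM (1.31, and 1.47). Tmsb10, which binds free actin, was at 342 and 1049 CPM (1.59, and 1.01 on levels that no longer passed the limit on other classes). Ids, a lysosomal sulphatase, was at 17.4 and 51.9 CPM (1.18, and 0.82, which is short of 2-fold). The first of the day 1 genes by rank, Cd74, rested on 314 UMIs of which 311 lay in 1 cell, and it is not read further.

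The inducible heat shock genes were higher on days 1 and 3. Hspa1a and Hspa1b encode the same HSP70 chaperone from neighbouring copies, and the counting could split their reads. Their sum was 231, 775, 793 and 363 CPM, a ratio of 3.36 on day 1 (3.16 to 3.57), 3.44 on day 3 (3.24 to 3.64) and 1.57 on day 7 (1.48 to 1.67). Days 1 and 3 were close and day 7 lay between them and sham. By copy, Hspa1a was at 194, 530, 570 and 296 CPM (1.41 and 1.51 on days 1 and 3, and 1.37 and 1.39 without markers of the 5 classes) and Hspa1b at 37.1, 245, 223 and 67.1 CPM (2.44 and 2.31, and 1.79 and 1.76 on levels of which at least that of day 1 no longer passed the limit on other classes). Both endothelial-like and pericyte-like cells had more Hspa1b too (85.4 to 840 and 155 to 502 CPM on day 1). The promoters of both copies are shown because they show how alike the pair is, differing at 3 of 250 bases (98.8% identity; RefSeq, GRCm38.p6, chr17:34972157-34972406 and chr17:34959239-34959488, minus strand). Capitals mark GAANNTTC, a core of the heat shock element searched on both strands and found in 6.69% of promoters. It lies 104 bases before each start, and TTCNNGAA (7.17% of promoters) was not found.
Hspa1a: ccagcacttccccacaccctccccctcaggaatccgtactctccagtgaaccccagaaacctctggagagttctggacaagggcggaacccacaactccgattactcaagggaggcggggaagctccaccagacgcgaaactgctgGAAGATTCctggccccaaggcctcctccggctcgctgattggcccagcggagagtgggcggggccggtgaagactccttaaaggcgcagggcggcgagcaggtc
Hspa1b: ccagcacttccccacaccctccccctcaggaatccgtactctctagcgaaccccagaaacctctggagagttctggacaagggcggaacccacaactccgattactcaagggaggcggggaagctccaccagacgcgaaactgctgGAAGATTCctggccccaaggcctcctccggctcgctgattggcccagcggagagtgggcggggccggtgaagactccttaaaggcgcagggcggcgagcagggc
The other chaperones differed less from sham. Hspb1, a small heat shock protein abundant in smooth muscle, was at 2340, 2299, 2583 and 2250 CPM, and Dnajb1, a partner of HSP70, at 62.9, 66.7, 76.1 and 41.8 CPM. The heat shock list had medians of 0.07, 0.44 and -0.02 (0.15, 0.32 and 0.04). On day 3, 13 of 13 tested genes were above 0 (10 of 10) and 2, the HSP70 copies, were past 2-fold over all members, against 0.41% of all genes tested that were past 2-fold higher. Without markers of the 5 classes 1 of 9 tested genes of the list was past 2-fold higher on day 1 and 2 of 10 on day 3.

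On day 3, 12 of 2924 genes tested were past 2-fold higher (0.41%) and 13 lower (0.445%; 0.855% in all), and 12 and 7 of 2823 without markers of the 5 classes. Genes of the matrix were among the higher ones. The extracellular matrix list held 2 past 2-fold of 12 tested, with a median of 0.33 (0.42 and 4 of 12), which turned to -0.083 in members thinned to 1000 UMIs. Fibroblast markers, which are not among the 5 classes, summed to 118, 134, 179 and 179 CPM in the members, and at least 3 of 7 were found in 2, 4, 5 and 1 members. Ogn, given at the end, made up most of that sum in each library. Col1a1, a collagen among those markers, had 14, 46, 281 and 16 UMIs, with 84.7% of those of day 3 in 3 cells. Without the members that held 3 fibroblast markers, a setting chosen after the data were seen, the day 3 log2 ratio was 1.49 for Thbs1, 1.37 for Col3a1 and 0.93 for Mgp. Thbs1, thrombospondin, was at 43.4, 118, 141 and 86.9 CPM, a log2 ratio of 1.26 on day 1, 1.5 on day 3 and 0.86 on day 7 (1.29, 1.52 and 0.70). On day 3, 43.0% of its UMIs lay in 3 cells, and the share of members with a UMI was 19.3%, 22.3%, 20.6% and 19.6%. After thinning the shares were 3.93%, 8.52%, 4.87% and 5.22%. Col3a1, a fibrillar collagen, was at 35.6, 108, 103 and 38.5 CPM (1.31 on day 3, and 1.28), with 39.5% of its day 3 UMIs in 3 cells. Mgp, an inhibitor of calcification, was at 1061, 1009, 2069 and 1260 CPM (0.96 on day 3, and 1.54), with 38.6% of its day 3 UMIs in 3 cells. Col4a1, of the basement membrane, was at 394, 397, 274 and 456 CPM (-0.51 on day 3, and -0.37).

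The remaining named genes of day 3 were less specific to these cells. Abhd2, a lipase, was at 67.2, 178, 172 and 130 CPM (1.24 on day 3, and 0.88, which is short of 2-fold). Slc39a1, a zinc transporter, was at 49.1, 102, 120 and 63.8 CPM (1.14, and 0.82). Both were higher in sham endothelial-like cells than in sham members, at 291 and 62.2 CPM. Lcn2, chosen after its values were seen, was at 4.00, 17.5, 229 and 17.9 CPM in the members but at 3085 CPM in endothelial-like cells on day 3, and it was not tested for that reason. Spp1, chosen in the same way, had 2475 UMIs on day 3, of which 2356 lay in 1 cell.

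**Figure D3:**
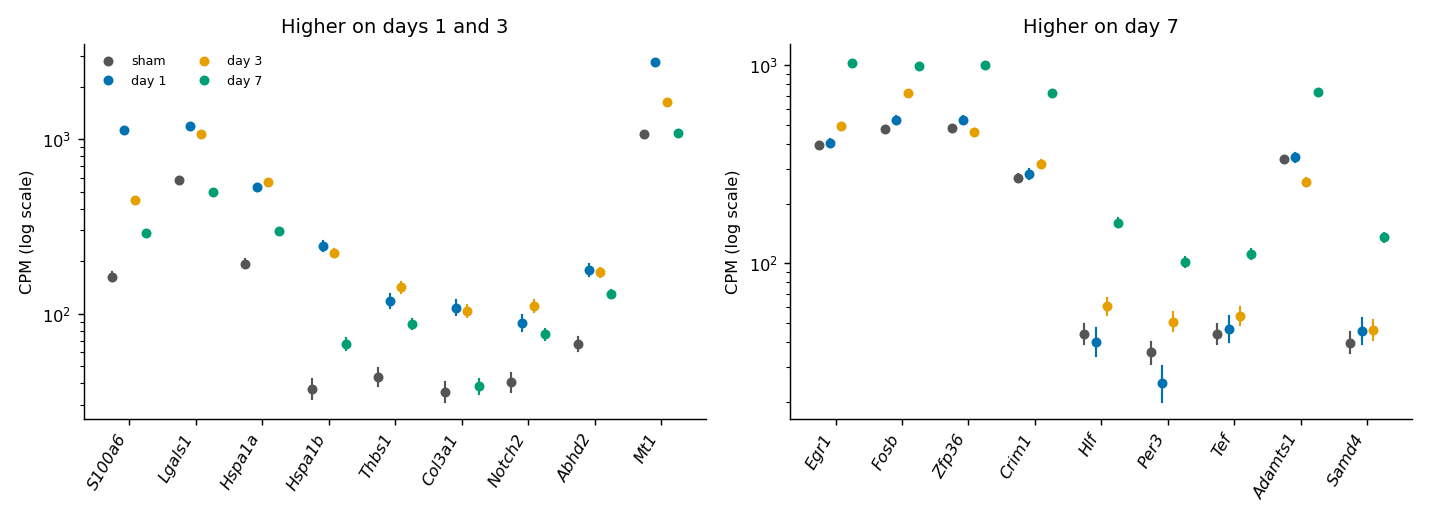
Summed level in the members of each library (CPM, log scale; points, with exact 95% counting intervals as lines) for genes that were higher on days 1 and 3 (left) and on day 7 (right). S100a6 is highest on day 1 at 1125 CPM, the HSP70 genes are high on days 1 and 3, and in the right panel day 7 stands above the other 3 libraries for each gene.

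On day 7, 56 of 3162 genes tested were past 2-fold higher (1.77%) and 16 lower (0.506%; 2.28% in all), and without markers of the 5 classes 52 and 6 of 3035. The immediate-early list, of genes known to answer quickly to stimuli, had 4 of 15 past 2-fold and a median of 0.38, with 13 of 15 above 0 (0.49, with 15 of 15 above 0). Egr1, a zinc finger factor, was at 396, 404, 491 and 1028 CPM, a ratio of 2.60 (2.49 to 2.71; log2 1.36, and 1.53). A UMI of Egr1 was found in 64.9%, 61.4%, 59.0% and 79.2% of the members, and after thinning in 26.0%, 28.7%, 25.5% and 49.0%. Fosb and Fosl2, partners in the AP-1 factor, were at 476, 529, 719 and 984 CPM (1.03, and 1.18) and at 58.9, 105, 57.8 and 141 CPM (1.14, and 1.07). Zfp36, which speeds the decay of inflammatory mRNAs, was at 479, 530, 460 and 1004 CPM (1.05, and 1.27). Endothelial-like cells had 334 CPM of Egr1 in sham and 843 CPM on day 7, and pericyte-like cells 227 and 446 CPM. The median of the whole list on day 7 was 0.27 in endothelial-like cells but -0.36 in pericyte-like cells, and in the members it was 0.175 at the 5% mitochondrial limit. Such genes can be induced while tissue is being dissociated, and the part of the digestion was not tested.

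Hlf, a PAR bZIP factor whose mRNA follows the daily clock, had the highest lower bound of all on day 7, at 43.7, 40.1, 60.5 and 160 CPM, a ratio of 3.67 (3.24 to 4.17; log2 1.67, and 1.80). It was found in 27%, 14.7%, 30.6% and 55.3% of the members, and after thinning in 4.18%, 3.16%, 4.87% and 14.4%. Tef, a factor of the same family, and Per3, a clock repressor, were chosen after their values were seen. Tef was at 43.9, 46.5, 54.2 and 112 CPM (1.18, and 1.28), and Per3 at 35.4, 24.8, 50.7 and 102 CPM (1.30, and 1.28). Dbp, the third of the PAR factors and a named gene of day 1, did not share this course. It was at 243, 51.9, 276 and 259 CPM, a log2 ratio of -2.03 on day 1 (-2.10) and 0.09 on day 7. Pericyte-like cells had 602, 114, 680 and 296 CPM of Dbp and endothelial-like cells 239, 80.2, 232 and 168 CPM, so that the day 1 library was low in each of the 3 classes. The hour of tissue collection was not given in the sources used here, and its part in these values was not tested. The promoter of Per3 (RefSeq, GRCm38.p6, chr4:151044666-151044915, minus strand) is shown because it carries the D-box to which PAR factors bind. Capitals mark TTATGNAA, searched on both strands, with 2 matches 205 and 158 bases before the start, a motif present in 3.07% of promoters.
Per3: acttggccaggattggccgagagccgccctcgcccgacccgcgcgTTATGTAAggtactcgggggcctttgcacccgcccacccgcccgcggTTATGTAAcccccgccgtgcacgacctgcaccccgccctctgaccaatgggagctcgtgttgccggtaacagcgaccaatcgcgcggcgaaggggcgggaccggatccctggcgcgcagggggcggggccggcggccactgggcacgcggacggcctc
The same search found no match in the promoters of Hlf, Tef and Dbp, which says only that these letters are absent from those windows.

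With the stated limit on level, the list of matrix proteases and inhibitors had the highest median of the lists on that day. It was 0.79 over 7 tested genes that were all above 0 (0.68, also 7 of 7). Of these, 2 were past 2-fold, and 3 of 7 without markers of the 5 classes, against 1.77% of all genes tested that were past 2-fold higher. With no limit on level the median of the list fell to 0.439, below that of the calcium and channel list. On days 1, 3 and 7, 4, 5 and 7 genes of the protease list were tested. A high day 7 level could itself let a gene in, which favours values above 0. Adamts1, a protease that cuts proteoglycans, was at 334, 343, 256 and 731 CPM (1.11, and 1.21). Timp3, an inhibitor of metalloproteases, was at 718, 748, 770 and 1378 CPM (0.93, and 1.14). Day 7 was the highest library for both, and for Timp3 endothelial-like cells were highest then too (763 and 1474 CPM in sham and on day 7).

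Further genes of day 7 came from the named genes and the lists. Nfkbiz, a co-regulator of NF-kB targets, was at 69.4, 88.5, 97.4 and 219 CPM (1.53, and 1.58). Crim1, a membrane protein that binds bone morphogenetic proteins, was at 270, 282, 318 and 726 CPM (1.39, and 1.37). Samd4, an RNA-binding repressor of translation, was at 39.7, 45.5, 45.9 and 135 CPM (1.55, and 1.45), and in pericyte-like cells at 20.6 CPM or below. Atp8b1, a lipid flippase, was at 16.6, 14, 24.5 and 59.8 CPM (1.39, and 1.35). Igf1r, the receptor of insulin-like growth factor, was at 106, 181, 141 and 313 CPM (1.48, and 1.28 on levels that no longer passed the limit on other classes), beside 609 and 1194 CPM in endothelial-like cells. Ddit4, an inhibitor of mTORC1 that stress and glucocorticoids induce, was at 89.9, 102, 66.1 and 202 CPM (1.09, and 1.04). Atf5, a factor of the mitochondrial stress response, was lower, at 147, 109, 158 and 65.7 CPM (-1.05, and -1.02). Of the falls, Gm47283, a predicted gene, was at 143, 85.0, 88.3 and 36.6 CPM (-1.71, and -1.74), and it was low on day 7 in endothelial-like cells as well (161 and 44.3 CPM).

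**Figure D4:**
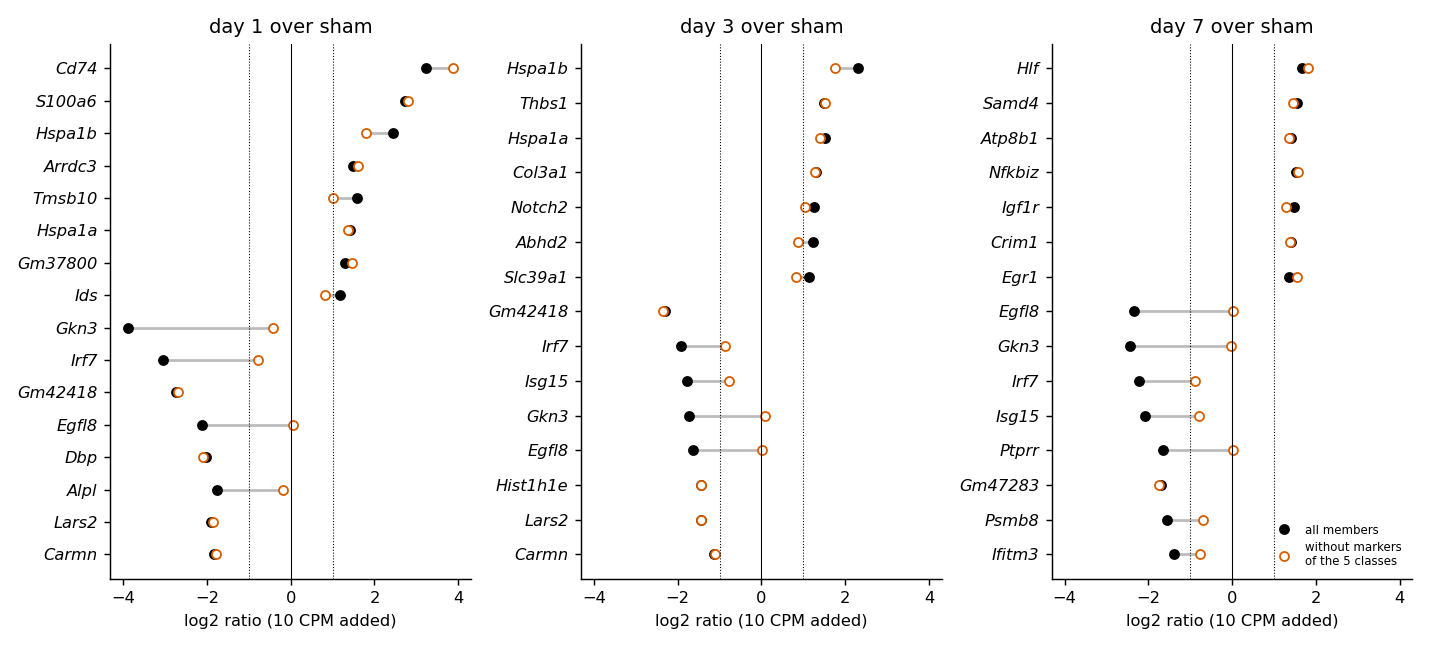
Log2 ratio to sham, with 10 CPM added, of the higher and lower genes named for each day, in all members (filled) and in members without markers of the 5 classes (open). Dotted lines mark 2-fold. Most higher genes lie close in both sets, although Ids, Abhd2 and Slc39a1 fall short of 2-fold in the open points. The lower genes Gkn3, Irf7, Egfl8, Alpl, Ptprr, Isg15, Psmb8 and Ifitm3 move to within 2-fold of sham.

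Many of the named lower genes were not past 2-fold in members without markers of the 5 classes. Gkn3, a gene of arterial endothelium in the brain, was at 444, 21.0, 127 and 73.1 CPM over all members (-3.87, -1.73 and -2.45). Without markers of the 5 classes it was at 3.32, 0, 4.16 and 2.97 CPM, so that no difference of that size was detectable there. Egfl8 was at 128, 21.8, 34.3 and 16.9 CPM in all members and between 2.21 and 2.67 CPM in the others. Alpl, tissue-nonspecific alkaline phosphatase, went from 69.7 CPM in sham to 13.5 on day 1 (2.88 and 1.33 CPM without markers of the 5 classes), and Ptprr, a phosphatase, from 87.2 in sham to 21.0 on day 7 (1.33 and 1.41 CPM). In sham endothelial-like cells these 4 genes stood at 538, 166, 202 and 261 CPM. Edn1, which encodes endothelin and was named after its values were seen, was at 123, 35.2, 51.3 and 54.5 CPM and behaved alike (-1.55 on day 1, and -0.06).

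The interferon and MHC class I list was the one in which all members and members without markers of the 5 classes differed most. Over all members its median was -1.0, -0.50 and -0.83, with 7 of 14, 2 of 10 and 5 of 14 tested genes past 2-fold lower, against 1.71%, 0.445% and 0.506% of all genes tested. Without markers of the 5 classes 5, 3 and 3 genes were tested, none was past 2-fold, and the medians were 0.10, 0.04 and -0.10. A gene could leave the tested set where its level was lower in those members, so the medians of both sets do not compare the same genes. Over the genes tested in all members, the medians were -1.40, -1.09 and -1.45 in pericyte-like cells and -1.35, -0.52 and -0.84 in endothelial-like cells. Isg15, a ubiquitin-like protein that interferon induces, was at 519, 145, 145 and 115 CPM (-1.77, -1.77 and -2.08) and, without markers of the 5 classes, at 141, 136, 78.2 and 77.4 CPM (-0.05, -0.77 and -0.79). In the sham members that carried endothelial markers it was at 1460 CPM. Irf7, the factor that amplifies this response, was at 211, 16.7, 48.1 and 37.2 CPM (-3.05, -1.93 and -2.23; -0.77, -0.86 and -0.90), beside 977 and 97.4 CPM in endothelial-like cells in sham and on day 1. Psmb8, a subunit of the immunoproteasome, was at 129, 35.5, 89.0 and 37.3 CPM (-1.56 on day 7, and -0.69). Ifitm3, which blocks virus entry, kept the largest part of its day 7 log2 ratio among the 4 genes named here. It was at 1724, 1113, 1167 and 647 CPM (-1.40 on day 7) and at 784, 948, 632 and 452 CPM (-0.78, which is short of 2-fold). On day 1 Ifitm3 was below sham over all members but above sham without markers of the 5 classes. The sham library was thus the highest in these genes over all members, and on day 7 the 4 named genes were below sham in both sets.

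Other lower genes were the same in both sets of members and in other classes. Gm42418, a predicted gene, was at 6088, 909, 1234 and 3631 CPM (-2.73 and -2.29 on days 1 and 3, and -2.69 and -2.34), and at 10460, 1225, 2011 and 5069 CPM in endothelial-like cells. Lars2, the mitochondrial leucyl-tRNA synthetase, was at 204, 47.6, 69.1 and 168 CPM (-1.89 and -1.44, and -1.86 and -1.45). Hist1h1e, a linker histone, was at 91.5, 27.2, 27.2 and 110 CPM (-1.45 on both days). Malat1, a nuclear noncoding RNA, was at 45160, 25280, 22260 and 37940 CPM. For these 4 genes days 1 and 3 were low together, in pericyte-like and endothelial-like cells as well, so that the difference was not particular to smooth muscle-like cells. Klf9, a target of glucocorticoids, was lower on day 1 in the same way, at 405, 178, 265 and 503 CPM (-1.14, and -1.0), and in endothelial-like cells at 204 and 98.1 CPM in sham and on day 1.

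The electron transport list had a median of 0.25 on day 1, 0.12 on day 3 and -0.41 on day 7 (0.14, 0.10 and -0.44), with 69 of 74 tested genes below 0 on day 7 and none past 2-fold. Atp5e, of the ATP synthase, was at 844, 1283, 1083 and 587 CPM, whereas Cox4i1, of cytochrome c oxidase, was among the few still above sham on day 7, at 572, 855, 757 and 658 CPM. The same list had medians of -0.34 and -0.38 on day 7 in pericyte-like and endothelial-like cells. Ribosomal protein genes had medians of 0.17, 0.11 and -0.19 (0.16, 0.13 and -0.15). The glycolysis and hypoxia list was highest on day 3, with a median of 0.34 and 13 of 14 genes above 0 (0.27, with 12 of 14), as for Eno1, enolase, at 131, 150, 205 and 111 CPM, and Ldha, lactate dehydrogenase, with a log2 ratio of 0.58 on that day.

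The lists of cytokine and growth factor genes held few genes at a level that could be tested. Of 32 cytokine, chemokine and NF-kB genes, 8, 7 and 9 were tested and none was past 2-fold, and the medians were -0.11, 0.08 and -0.02 (0.11, 0.05 and 0.26). Cebpb, a factor of acute inflammation, was at 1574, 2388, 1357 and 1551 CPM (0.60 on day 1, and 0.67). The TGF-beta, BMP and YAP list had medians of -0.17, -0.25 and 0.46 (0.02, -0.15 and 0.365), with 8 of 11 above 0 on day 7, and Id3, a target of BMP signalling, was at 2418, 2354, 1695 and 1822 CPM. Growth factor genes had medians of -0.31, -0.10 and 0.53 (-0.04, 0.07 and 0.35), with Igf1r as the 1 past 2-fold, on day 7, when 1.77% of all genes tested were past 2-fold higher, and none without markers of the 5 classes. Under the other settings the day 7 median of that list lay between 0.01, with at least 100 CPM, and 0.59, with 1 CPM added. The stress response list had medians of -0.03, -0.13 and -0.19 (0.22, -0.08 and -0.06), and the glucocorticoid list of -0.15, -0.13 and 0.37 (-0.06, -0.10 and 0.435). For the cytokine, TGF-beta, growth factor and stress lists at least 1 day thus had the opposite direction in the members without markers of the 5 classes. Of 18 cell cycle genes, 1, 0 and 0 reached the level for a test.

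**Figure D5:**
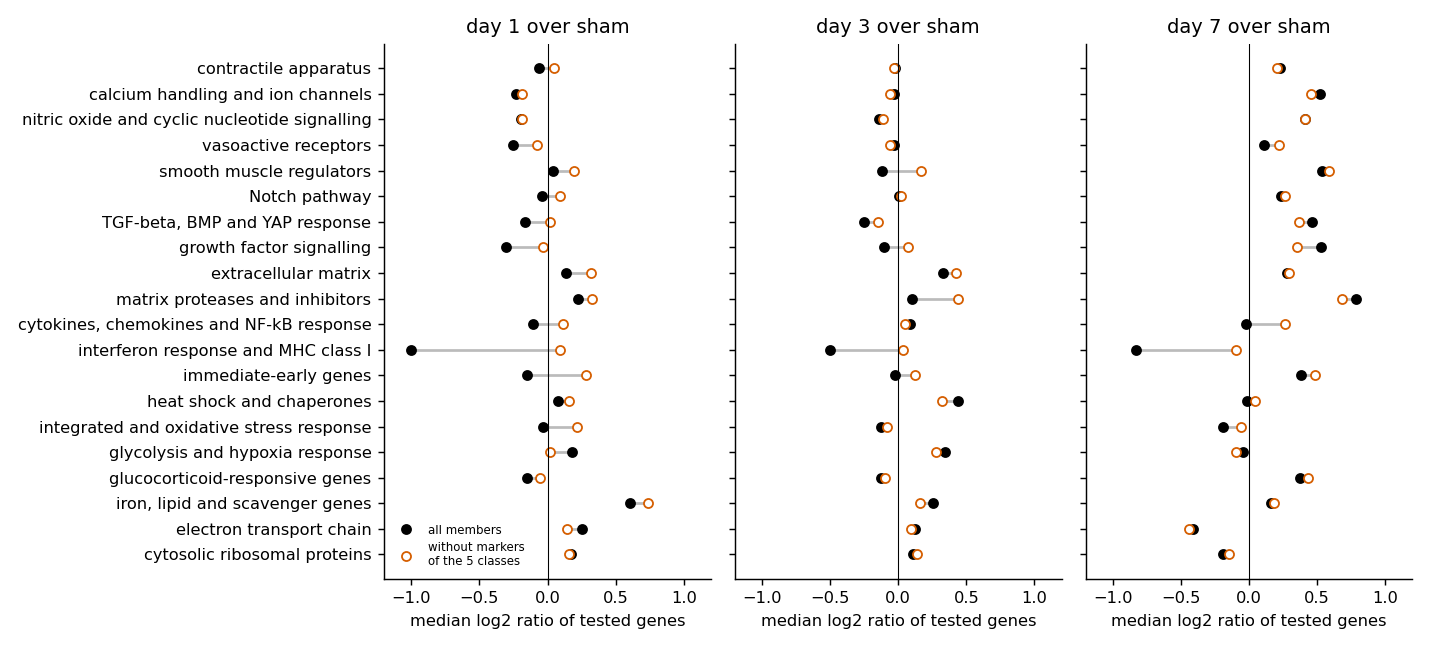
Median log2 ratio to sham over the tested genes of 20 gene lists (the cell cycle list is left out), in all members (filled) and in members without markers of the 5 classes (open). The interferon list lies at -1.0, -0.50 and -0.83 in all members and near 0 in the others, where fewer of its genes were tested. On day 7 the matrix protease list is highest and the electron transport list lowest among the open points.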

How the data were processed

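The authors deposited filtered matrices of whole UMI counts per gene and cell for 4 libraries from 10x Genomics 3' chips. The labels name Cell Ranger 3.0.1, Seurat 4.1.2 and GRCh38, whereas the deposited headers name Cell Ranger 4.0.0 and the features are mouse genes, of which 30934 of 31053 (99.6%) match GENCODE vM21 (GRCm38). All barcodes held 90607320, 104023002, 69392755 and 90072740 UMIs (sham, day 1, day 3, day 7), and the members 6744841, 3717124, 6294470 and 10496510. Cells were kept and chosen by the stated rule, with no clustering and no batch correction. Where symbols were duplicated, the row of most UMIs kept the symbol. Other cells took the class with the largest share of its markers found, at least 3. No doublet caller was run, and members with 3 markers of the endothelial, oligodendrocyte, astrocyte, neuron or choroid plexus class were left out in an alternative.

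UMIs were summed over the members of a library and divided by their total (CPM). Ratios have exact conditional intervals, levels exact Poisson intervals and shares exact Clopper-Pearson intervals, at 95%. With 1 library per group there was no test and no p-value, and the programs were tested on simulated data. For each day the 8 genes past 2-fold with the highest lower bound and the 8 with the lowest upper bound were named, ribosomal and mitochondrial genes left out, with 2 to 4 members of each of 21 lists, and the 12 genes of the rule were left out of the tests. Further list members given in the text were picked after their values were seen. Some genes that the rule names or the lists hold are not reported here. The members and lists were chosen with earlier results of these data known. Promoters came from RefSeq (GRCm38.p6), which held 24 of the 36 named genes. Alternatives changed the added CPM, the limits on level and class, scaling, depth, the filters on cells and the rule. Python 3.11.15, numpy 2.4.6, pandas 2.3.3, scipy 1.17.1 and matplotlib 3.10.9 were used.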

Additional observations from a re-analysis of the deposited data

How the results depend on the processing

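No paired analysis was possible because each group was 1 library without replicate numbers, and for the same reason no replicate could be left out. The share of kept cells was 7.77%, 4.36%, 7.83% and 10.2% (sham, day 1, day 3, day 7). It became 2.27%, 2.86%, 5.79% and 3.02% with at most 5% mitochondrial UMIs, 8.44%, 4.83%, 8.67% and 11.3% with 2 smooth muscle genes required, 6.89%, 3.34%, 6.60% and 8.86% with 4, 5.16%, 3.41%, 5.09% and 6.27% with no pericyte gene allowed, 8.70%, 5.16%, 9.28% and 11.3% with Mog and C1qa allowed, 4.33%, 2.68%, 4.67% and 7.25% with the rule on thinned cells, and 6.03%, 3.35%, 6.12% and 7.62% without members that carried 3 markers of the 5 classes. With at most 3000 genes, the limit in the study's methods, day 1 was 5.01%. At the mitochondrial limit sham became lowest and day 3 highest. In the other settings day 1 was lowest and day 7 highest, but sham, which lay just below day 3, was above it with 4 smooth muscle genes, with no pericyte gene and with at most 3000 genes (8.27% and 7.84%).

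The number of genes past 2-fold moved by more than 1.5 times under many settings, and the cause was not tested. Higher on day 1 there were 17, and 5 with 50 CPM added, 10 with at least 100 CPM, 71 with no limit on other classes, 26 in thinned cells and 73 at the 5% mitochondrial limit. Lower on day 1 there were 49, and 17 with 50 CPM added, 32 with at least 100 CPM, 76 with no limit on level, 82 with CPM taken without mitochondrial and ribosomal genes, Malat1 and Gm42418, 22 with at most 3000 genes, 291 at the mitochondrial limit and 26 without markers of the 5 classes. Higher on day 3 there were 12, and 4 with 50 CPM added, 33 with no limit on classes, 84 at the mitochondrial limit and 5 with 4 smooth muscle genes. Lower on day 3 there were 13, and 8 with 50 CPM added, 23 with the reduced CPM, 6 with at most 3000 genes, 209 at the mitochondrial limit and 7 without markers of the 5 classes. Higher on day 7 there were 56, and 101 with 1 CPM added, 13 with 50, 87 in thinned cells and 170 at the mitochondrial limit. Lower on day 7 there were 16, and 26 with 1 CPM added, 8 with 50, 27 with no limit on classes, 30 with the reduced CPM, 5 with at most 3000 genes, 68 at the mitochondrial limit and 6 without markers of the 5 classes. Of the genes past 2-fold, 25.8%, 48.0% and 77.8% were higher on days 1, 3 and 7, against 39.1%, 39.1% and 62.3% with ratios centred on their median and 18.8%, 34.3% and 67.0% with the reduced CPM. These shares were 52.2%, 57.1% and 91.5% with at most 3000 genes, and 53.0%, 64.7% and 70.3% with no limit on other classes. Without markers of the 5 classes they were 48.0%, 63.2% and 89.7%. Lower genes thus did not outnumber higher genes on day 1 under every setting.

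The median of the contractile list moved on day 1 from -0.07 to 0.02 when centred, 0.066 in thinned cells, 0.86 at the mitochondrial limit and 0.051 without markers of the 5 classes, on day 3 from -0.03 to -0.088 with the reduced CPM and 0.92 at the mitochondrial limit, and on day 7 from 0.23 to 0.16 when centred, 0.18 with at most 3000 genes and 0.75 at the mitochondrial limit. The interferon median of day 1 turned from -1.0 to 0.26 with at most 3000 genes and to 0.10 without markers of the 5 classes, where 5 of its genes instead of 14 were tested. With at most 3000 genes, the log2 ratio turned to 0.37 for Alpl on day 1, 0.58 and 0.21 for Egfl8 on days 1 and 7, 0.11 and 0.26 for Gkn3 on days 3 and 7, and 0.42 for Ptprr on day 7. Without markers of the 5 classes it turned to 0.052, 0.012 and 0.022 for Egfl8 on days 1, 3 and 7, 0.088 for Gkn3 on day 3 and 0.011 for Ptprr on day 7. Of 61 list medians, 1 for each list and day with a tested gene, 31 changed sign under at least 1 of 13 settings and 30 under none of them. Of the 48 gene and day pairs named, 48 kept past 2-fold with 1 CPM added, 35 with 50, 36 in thinned cells, 24 with at most 3000 genes, 43 at the mitochondrial limit and 26 without markers of the 5 classes. The fewest UMIs were in the day 1 members, so that at equal CPM the counting interval of a gene's level is widest there.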

Other observations

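The genes given here were chosen after their values were seen, and their second log2 ratio is for members without markers of the 5 classes. Some genes past 2-fold higher on day 1 stood low in pericyte-like and endothelial-like cells. Ltbp1, which holds latent TGF-beta in the matrix, was at 113, 264, 183 and 253 CPM (sham, day 1, day 3 and day 7; log2 ratio 1.16 on day 1 and 1.10 on day 7, and 1.35 and 1.08), beside at most 9.52 CPM in pericyte-like cells and 5.19 CPM in endothelial-like cells. Pi15, a secreted protease inhibitor, was at 35.4, 87.2, 53.7 and 58.8 CPM (1.10 on day 1, and 1.21), with no UMI in pericyte-like cells. Dmp1, a matrix protein best known from bone, was at 21.4, 55.7, 23.2 and 35.2 CPM (1.07 on day 1, and 1.22), also with no UMI in pericyte-like cells. Luzp1, a protein of actin bundles and the primary cilium, was lower on day 1, at 248, 70.8, 140 and 199 CPM (-1.68, and -1.55).

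On day 7, Dmd, which encodes dystrophin and links actin to the membrane, was at 152, 191, 183 and 356 CPM (1.17, and 1.12), and Ahnak, a very large scaffold protein, at 284, 342, 302 and 705 CPM (1.28, and 1.30). Nfia, a transcription factor, was higher in each tMCAO library, at 126, 243, 249 and 307 CPM (0.90, 0.93 and 1.23). Txnip, which limits glucose uptake, was at 382, 473, 338 and 832 CPM (1.10 on day 7, and 1.09). Ogn, a small proteoglycan and 1 of the 7 fibroblast markers used here, was at 71.5, 90.7, 121 and 174 CPM (1.18 on day 7, and 1.04). It made up most of the summed fibroblast markers in the members, at 118, 134, 179 and 179 CPM. The chemokine receptor Ackr3 was lower on days 1 and 7 and close to sham on day 3, at 234, 104, 202 and 112 CPM (-1.09, -0.20 and -1.0, and -0.94, -0.16 and -1.07). Higd1b, a gene typical of mural cells, was lowest on day 7, at 512, 573, 375 and 233 CPM (-1.10, and -1.06), whereas pericyte-like cells had 1159 CPM in sham and 1127 CPM on day 7.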
